A study of Mus musculus with 10 samples.

Results

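The fetal cardiac gene programme was followed here through 10 genes: the natriuretic peptide genes Nppa and Nppb, the actin genes Acta1 and Actc1, the myosin heavy chain genes Myh6 and Myh7, the myosin light chain genes Myl4 and Myl7, the troponin I gene Tnni1, and Ankrd1. A gene was read through the probe sets that the array annotation pairs with its symbol alone. Each of the 10 genes had 1 such probe set, and all 10 passed the filter on dim probe sets, so they are 10 of the 13870 genes tested and of the 19939 genes that had a probe set of their own. The selection goes by gene name and has no threshold on a measured value, but the genes were chosen with earlier results of these data known.

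RNA from the ventricles of 10 mice was hybridised to 10 Affymetrix mouse gene arrays, 1 mouse per array. In the tamoxifen group, 5 mice received 50 mg/kg of tamoxifen per day on 2 consecutive days at the age of 2 months. In the vehicle group, 5 mice received sunflower seed oil alone. Every heart was collected 1 month after the injections, at 3 months. The question is what losing PGC-1β changes in hearts that already lack PGC-1α: the labels describe tamoxifen mice as knockout for both coactivators, and vehicle mice as knockout for PGC-1α with PGC-1β intact.

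By the source names, the mice of both groups were PGC-1a-/-bf/f/MerCre, that is, they lacked PGC-1α (Ppargc1a), had floxed alleles of PGC-1β (Ppargc1b) and carried a Cre recombinase that tamoxifen activates. The titles call the vehicle mice only PGC-1a-/-, and if the titles were right the groups would also differ in the floxed alleles and the Cre. The promoter that drives MerCre and the sex of the mice are not given in the sources used here. No array came from a tamoxifen-treated mouse without Cre or floxed alleles, so tamoxifen, active Cre and the deletion cannot be told apart. The labels give each sample as 1 mouse.

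The embryonic ventricle builds its contractile apparatus partly from isoforms that the adult ventricle replaces. After birth in the mouse, Myh6 takes over from Myh7, cardiac actin Actc1 dominates over skeletal actin Acta1, cardiac troponin I (Tnni3) replaces slow skeletal troponin I (Tnni1), and the light chains Myl4 and Myl7 withdraw to the atria while Myl2 and Myl3 serve the ventricle. Nppa and Nppb encode the hormones ANP and BNP, which cardiomyocytes secrete under stretch. Return of these genes in adult ventricle is a classical sign of haemodynamic or metabolic load.

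The deposited values are log2 signals, and the array medians lay between 7.18 and 7.31, with tamoxifen array 2 the highest. Both targeted genes gave higher signals in the tamoxifen-labelled arrays. Ppargc1b read 9.93, 10.15, 10.11, 9.93 and 10.03 on tamoxifen arrays 1 to 5, against 9.76, 9.69, 9.82, 9.65 and 9.90 on vehicle arrays 1 to 5, a log2 fold change of 0.27 ± 0.061 (standard error, limma adjusted p = 0.00518). Ppargc1a rose by 0.39 ± 0.095 (limma adjusted p = 0.00797). A rise of the Ppargc1b signal goes against the label of the tamoxifen-labelled arrays. A probe set outside the deleted exons would not report a deletion, and where these probes lie was not analysed here, so the signal does not settle the deletion. Every direction below is that of the arrays labelled tamoxifen against the arrays labelled vehicle.

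Of the 10 genes, 6 rose and 0 fell in tamoxifen hearts: Acta1, Nppb, Myh7, Nppa, Ankrd1 and Tnni1. Without adjustment, at p under 0.05, the counts were also 6 and 0. The unadjusted share over all tested genes was not worked out, so the unadjusted counts have no background beside them. Over all tested genes, limma with Benjamini-Hochberg adjustment at 0.05 called 13.7% higher and 8.31% lower, 22.1% in all. The median log2 fold change of the 10 genes was 0.34, beside 0.014 over all tested genes. As the 10 genes were chosen with earlier results known, these figures describe them and are no test of the programme. All gene lists below were chosen in the same way, so their counts and shares are descriptions too. In 5 of the 10, Acta1, Nppb, Nppa, Ankrd1 and Myh6, each tamoxifen value exceeded each vehicle value, a separation seen in 10.5% of all genes. Myh6, Actc1, Myl4 and Myl7 did not pass the test. The values came from whole ventricle, where a change in the number of cells of a type and a change in RNA per cell cannot be told apart.

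**Figure D1:**
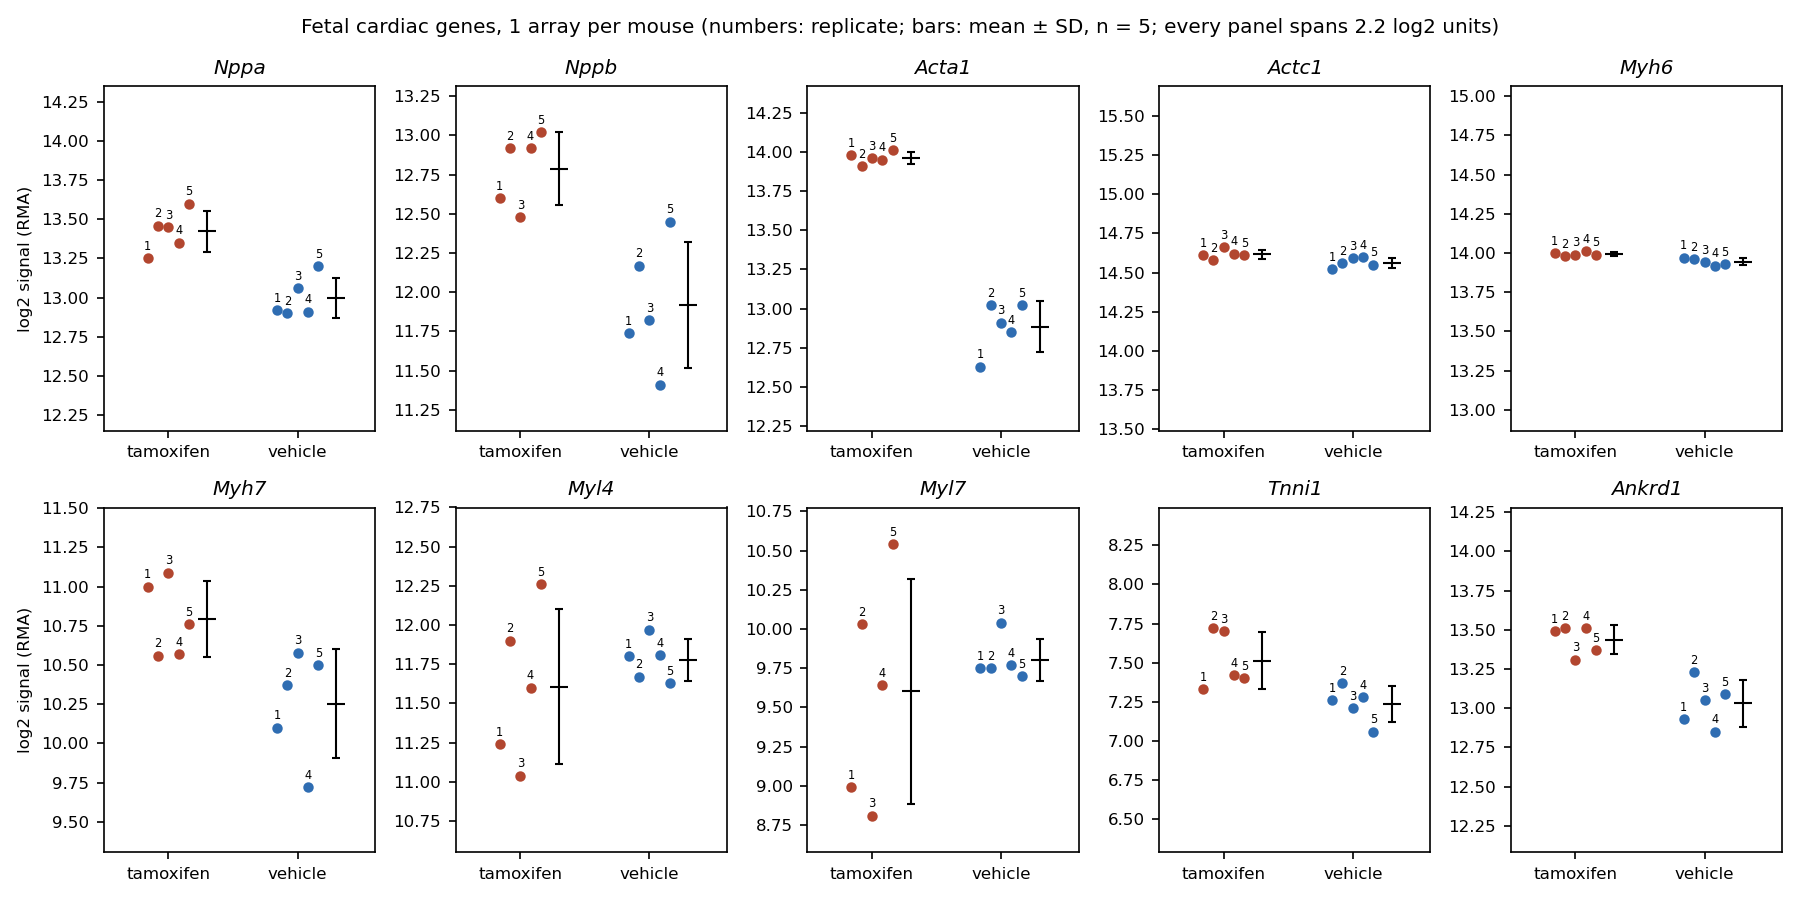
Log2 signal of each of the 10 genes (vertical axis, every panel spanning the same range) on the 5 tamoxifen arrays at left and the 5 vehicle arrays at right; points carry the replicate number, and bars give the mean and SD. Acta1 shows the cleanest separation, with 13.91 to 14.01 in tamoxifen hearts and 12.63 to 13.02 in vehicle hearts, while Myl4 and Myl7 are spread widely in tamoxifen hearts only.

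Acta1, which encodes skeletal muscle alpha-actin and is the main actin isoform of the fetal programme, rose most. Its probe set (10582592) read 13.98, 13.91, 13.96, 13.95 and 14.01 on tamoxifen arrays 1 to 5, against 12.63, 13.02, 12.91, 12.85 and 13.02 on vehicle arrays 1 to 5. The tamoxifen hearts were tightly grouped, and the lowest of them stood well above the highest vehicle heart. The log2 fold change was 1.08 ± 0.067, or 2.11-fold (limma adjusted p = 9.87e-09), which placed Acta1 at rank 14 among the 1906 genes called higher.

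Actc1, the alpha-actin of the adult heart, was not called. Probe set 10485982 read 14.61, 14.58, 14.66, 14.62 and 14.61 in tamoxifen hearts and 14.52, 14.56, 14.59, 14.60 and 14.55 in vehicle hearts. The groups overlapped, and the log2 fold change was 0.05 with a 95% interval from -0.041 to 0.14 (limma adjusted p = 0.436). Actc1 was the brightest named gene on the array or within 0.04 log2 units of it on all 10 arrays; whether signals that bright are compressed was not tested.

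The promoters of both actin genes are shown as a description, and the part of these letters in the rise of Acta1 was not tested. The windows run from 250 bases before to 50 after the start in RefSeq (GRCm38.p6), 5′ to 3′ on the gene's strand, with motif matches in capitals. Both strands were searched for the MCAT element (CATTCC, bound by TEAD factors), the GATA site (spelled AGATAA or AGATAG when it starts with A, and TGATAA or TGATAG when it starts with T), the TATA box (TATAAA), a nuclear receptor motif (AGGTCA), the CArG box (bound by serum response factor) and the MEF2 site.
Acta1, chr8:123894726-123895025, minus strand: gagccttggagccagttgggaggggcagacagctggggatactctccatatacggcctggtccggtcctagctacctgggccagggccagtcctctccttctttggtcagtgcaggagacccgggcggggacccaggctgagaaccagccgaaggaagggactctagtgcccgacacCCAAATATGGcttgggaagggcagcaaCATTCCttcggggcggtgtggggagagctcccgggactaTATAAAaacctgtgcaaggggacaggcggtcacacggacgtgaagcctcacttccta
Actc1, chr2:114052826-114053125, minus strand: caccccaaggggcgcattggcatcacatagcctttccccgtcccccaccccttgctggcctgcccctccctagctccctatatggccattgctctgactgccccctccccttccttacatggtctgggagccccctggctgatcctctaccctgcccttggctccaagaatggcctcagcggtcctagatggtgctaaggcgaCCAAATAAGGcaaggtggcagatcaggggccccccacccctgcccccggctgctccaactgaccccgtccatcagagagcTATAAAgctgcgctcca
In capitals Acta1 shows a CArG box 73 bases upstream of the start, an MCAT element 46 bases upstream and a TATA box 7 bases upstream. Actc1 shows a CArG box 47 bases upstream and a TATA box 34 bases downstream, and no MCAT element within the window. Of all 32851 windows of 300 bases, 1.63% held a CArG box, 14.7% an MCAT element, 13.6% a TATA box, 29.8% a GATA site, 16.3% the nuclear receptor motif and 3.19% a MEF2 site. These are matches of letters, and no binding was measured. All distances here and below are from the RefSeq start, which was not checked against a measured start.

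Both natriuretic peptide genes, neighbours on chromosome 4, rose. Nppa (probe set 10510265) read 13.25, 13.46, 13.45, 13.35 and 13.60 on tamoxifen arrays 1 to 5, against 12.92, 12.90, 13.06, 12.91 and 13.20 on vehicle arrays 1 to 5. Nppb (probe set 10510260) read 12.60, 12.92, 12.48, 12.92 and 13.02 on tamoxifen arrays 1 to 5, against 11.74, 12.17, 11.82, 11.41 and 12.45 on vehicle arrays 1 to 5. In neither gene did the groups overlap, although vehicle heart 5 came within 0.05 of the lowest tamoxifen heart for Nppa and within 0.03 for Nppb. The rise was 0.42 ± 0.072 for Nppa, or 1.34-fold (limma adjusted p = 0.000448). For Nppb it was 0.87 ± 0.15, or 1.83-fold (limma adjusted p = 0.000626). Nppb was also among the genes that varied most between hearts of the same group, with an SD at the percentile 98.7 of all genes in tamoxifen hearts and 99.9 in vehicle hearts.

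The 2 peptide promoters are shown with their matches in capitals. The window of Nppb is set on a RefSeq start inside the gene's outer span.
Nppa, chr4:148000472-148000771, plus strand: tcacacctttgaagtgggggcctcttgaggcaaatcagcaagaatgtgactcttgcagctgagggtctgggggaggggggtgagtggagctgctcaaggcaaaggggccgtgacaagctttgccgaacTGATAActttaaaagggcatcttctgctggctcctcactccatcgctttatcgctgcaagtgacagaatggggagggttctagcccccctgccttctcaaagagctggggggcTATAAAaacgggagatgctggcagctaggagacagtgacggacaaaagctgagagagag
Nppb, chr4:147985650-147985949, plus strand: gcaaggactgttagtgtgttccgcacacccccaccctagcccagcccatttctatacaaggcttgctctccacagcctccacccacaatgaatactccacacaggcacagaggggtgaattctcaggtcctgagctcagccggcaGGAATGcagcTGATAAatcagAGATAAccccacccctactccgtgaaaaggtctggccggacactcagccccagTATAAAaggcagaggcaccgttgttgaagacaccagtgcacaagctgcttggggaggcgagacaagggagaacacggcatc
Nppa shows a GATA site 122 bases upstream and a TATA box 9 bases upstream. Nppb shows an MCAT element on the opposite strand 105 bases upstream, GATA sites 95 and 84 bases upstream, and a TATA box 31 bases upstream. None of the matches shown overlaps another.

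No gene of the pathway around the hormones was called higher. Of the 15 genes of natriuretic peptide processing, receptors, breakdown and cyclic GMP signalling, 0 were called higher and 2 lower, with a median of -0.014. The share lower was 13.3%, beside 8.31% over all tested genes, of which 13.7% were higher. Unadjusted, at p under 0.05, limma gave 2 higher and 4 lower, again with no unadjusted share over all tested genes beside them. Mme, which encodes neprilysin, the protease that degrades ANP, fell by 0.25 on the log2 scale (± 0.066, limma adjusted p = 0.0125). Corin, the protease that activates pro-ANP, fell by 0.17 (± 0.048, limma adjusted p = 0.0195); its call was lost without vehicle replicate 1 (adjusted p = 0.0541) or vehicle replicate 2 (adjusted p = 0.0543). The number of pathway genes called lower was 1 without vehicle replicate 1 or without vehicle replicate 2, 4 without tamoxifen replicate 2, and 5 with array weights or quantile normalization. The receptor genes Npr1 (-0.01), Npr2 (-0.12) and the clearance receptor gene Npr3 (0.09) were not called. Furin, the protease that processes pro-BNP, differed by 0.13 (limma adjusted p = 0.0538) and was called higher under 5 alternatives, among them without tamoxifen replicate 3 (adjusted p = 0.0373).

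Myh7, the slow beta myosin heavy chain of fetal mouse ventricle, rose, and Myh6, the fast alpha chain of the adult, was not called. The 2 genes lie side by side on chromosome 14. Myh7 (probe set 10419934) read 11.00, 10.56, 11.09, 10.57 and 10.76 on tamoxifen arrays 1 to 5, against 10.10, 10.37, 10.58, 9.72 and 10.50 on vehicle arrays 1 to 5. The groups overlapped, with 3 of 5 tamoxifen hearts above the highest vehicle heart. The log2 fold change was 0.54 ± 0.14, or 1.46-fold (limma adjusted p = 0.0113), and with a trended and robust prior the adjusted p was 0.0726.

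Myh6 (probe set 10419900) read 14.00, 13.98, 13.99, 14.01 and 13.99 in tamoxifen hearts and 13.97, 13.96, 13.94, 13.92 and 13.93 in vehicle hearts. Every tamoxifen value was the higher, yet the difference was small: 0.05, with a 95% interval from -0.039 to 0.14 (limma adjusted p = 0.439). The SD of Myh6 was 0.011 in tamoxifen hearts and 0.021 in vehicle hearts. The standard error from limma, 0.042, was larger because limma draws on the spread of all genes. The interval is therefore wider than the spread of Myh6 itself would give. For Actc1 and Myl3 the standard error also exceeded the SD of either group. The Myh6 signal lay 0.56 to 0.68 log2 units below the brightest named gene of each array. Whether signals that bright are compressed was not tested, so the interval describes this signal only. Thrb, a thyroid hormone receptor gene, fell by 0.22 on the log2 scale (± 0.051, limma adjusted p = 0.00518). The other thyroid hormone receptor gene was not called (log2 fold change -0.072). Thyroid hormone is known to favour Myh6 over Myh7, and its part in the rise of Myh7 was not tested.

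Each of these heavy chain genes hosts a microRNA gene in an intron, and the mature forms are shown in RefSeq letters (GRCm38.p6) because they share a seed, bases 2 to 8, in capitals.
miR-208a-3p, within Myh6, chr14:54949072-54949093, minus strand: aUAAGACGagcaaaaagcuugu
miR-208b-3p, within Myh7, chr14:54975710-54975731, minus strand: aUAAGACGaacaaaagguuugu
The probe set of Mir208a read 6.79, 7.38, 7.21, 7.04 and 7.12 in tamoxifen hearts and 7.06, 7.11, 7.03, 6.86 and 6.99 in vehicle hearts, with overlapping groups and no call. Mir208b was not analysed here.

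Tnni1, the slow skeletal troponin I of the fetal heart, rose modestly from a low signal. Probe set 10350149 read 7.33, 7.72, 7.70, 7.42 and 7.40 in tamoxifen hearts, against 7.26, 7.37, 7.21, 7.28 and 7.06 in vehicle hearts. In 4 of 5 tamoxifen hearts the value was above the highest vehicle heart. The log2 fold change was 0.28 ± 0.080, or 1.21-fold (limma adjusted p = 0.0195). This call rested on single arrays: the adjusted p was 0.0528 without tamoxifen replicate 3 and 0.0526 without vehicle replicate 5.

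Ankrd1 encodes a stretch-responsive ankyrin repeat protein of the sarcomere and nucleus that is induced under load. Its probe set (10467191) read 13.49, 13.51, 13.31, 13.51 and 13.37 in tamoxifen hearts, against 12.93, 13.23, 13.05, 12.85 and 13.09 in vehicle hearts. The groups did not overlap. The rise was 0.41 ± 0.069, or 1.33-fold (limma adjusted p = 0.000436). Its promoter window held an MCAT element 210 and another 123 bases upstream and a GATA site 47 bases upstream, all on the opposite strand. The windows of Myh6, Myl7 and Myl3, which were not called, each held an MCAT element and a GATA site. Those of Myl7 and Myl3 also held a CArG box, and that of Myh6 a TATA box. Myh7 held an MCAT element. Tnni1, which was called, and Myl4, which was not, held none of the motifs.

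The atrial light chain genes had no called shift and a wide spread in tamoxifen hearts. Myl4, the atrial and embryonic essential light chain (probe set 10381798), read 11.24, 11.90, 11.04, 11.60 and 12.26 in tamoxifen hearts and 11.80, 11.67, 11.97, 11.81 and 11.63 in vehicle hearts. Myl7, the atrial regulatory light chain (probe set 10384044), read 8.99, 10.03, 8.81, 9.64 and 10.54 in tamoxifen hearts and 9.75, 9.75, 10.04, 9.77 and 9.70 in vehicle hearts. In both genes tamoxifen hearts 1, 3 and 4 lay below all vehicle hearts, heart 4 only narrowly, tamoxifen heart 5 lay above them and tamoxifen heart 2 lay within their range. The log2 fold change was -0.17 for Myl4 (95% interval -0.52 to 0.19, limma adjusted p = 0.521) and -0.20 for Myl7 (-0.70 to 0.30, adjusted p = 0.599), so these intervals leave room for shifts in either direction.

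The SD of Myl4 was 0.49 in tamoxifen hearts and 0.13 in vehicle hearts. That of Myl7 was 0.72 in tamoxifen hearts and 0.14 in vehicle hearts. For comparison, the median SD over all genes was 0.0951 in tamoxifen hearts and 0.0832 in vehicle hearts. In tamoxifen hearts the SD of Myl7 stood at the percentile 99.97 of all genes and that of Myl4 at 99.93, whereas in vehicle hearts both stood between the percentiles 83.9 and 84.7. No test of the difference in spread was run.

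Some other atrial genes varied with these light chains from array to array and others did not. Sln, which encodes the atrial calcium pump regulator sarcolipin, read 7.03, 7.36, 7.06, 7.28 and 8.04 in tamoxifen hearts and 7.84, 7.50, 7.53, 7.77 and 7.63 in vehicle hearts. Mybphl, an atrial myosin binding protein gene, read 8.32, 8.53, 8.13, 8.63 and 9.24 in tamoxifen hearts and 8.32, 8.19, 8.48, 8.34 and 8.41 in vehicle hearts. In both, tamoxifen heart 5 was the highest of the 10. Without tamoxifen replicate 5, Sln would be called lower (limma adjusted p = 0.00108, against 0.154 with it). Of 10 tested atrial markers other than the 10 genes, 0 were called higher and 1 lower: Kcnj3, an atrial potassium channel gene, which fell by 0.57 (± 0.070, limma adjusted p = 2.11e-05). The share of the atrial markers called lower was 10%, beside 8.31% over all tested genes, of which 13.7% were higher. The mean signal over these markers ranged from 8.26 to 8.60 in tamoxifen hearts and from 8.48 to 8.58 in vehicle hearts. Bmp10, an atrial ligand gene below the filter, read 5.25 to 5.70 in 4 tamoxifen hearts and 7.49 in tamoxifen heart 5, against 5.49 to 6.71 in vehicle hearts. Nr2f1 also lay below the filter.

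Taking each array's deviation from its group mean, Myl4 and Myl7 had r = 0.99 over the 10 arrays (rho = 0.95; r = 0.96 without the 2 arrays farthest from the median of Myl4). The median r with the 10 atrial markers was 0.61 for Myl4 (from -0.21 to 0.94) and 0.56 for Myl7 (from -0.28 to 0.92), and 5 of the 10 markers had r over 0.5 with each. For Myl4 these were Stard10 (0.94), Mybphl (0.90), Fgf12 (0.89), Sln (0.83) and Dkk3 (0.76), whereas Kcnj3 had 0.46, Nr2f2 0.35, Kcna5 0.22, Gja5 0.15 and Kcnj5 -0.21. Without the 2 arrays farthest from the median of Myl4, these values ranged from 0.22 for Kcna5 to 0.89 for Stard10, with 0.72 for Nr2f2 and 0.76 for Gja5. The same median was 0.066 for Nppa, 0.23 for Nppb, -0.20 for Acta1, -0.44 for Myh7, 0.12 for Tnni1 and 0.082 for Ankrd1. These are descriptions over arrays that share their normalization. The share of all tested genes with r over 0.5 was not worked out, so the counts of markers have no background beside them. The part of atrial tissue in the spread of Myl4 and Myl7, and in the rise of Nppa, which atria also express, was not tested.

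**Figure D2:**
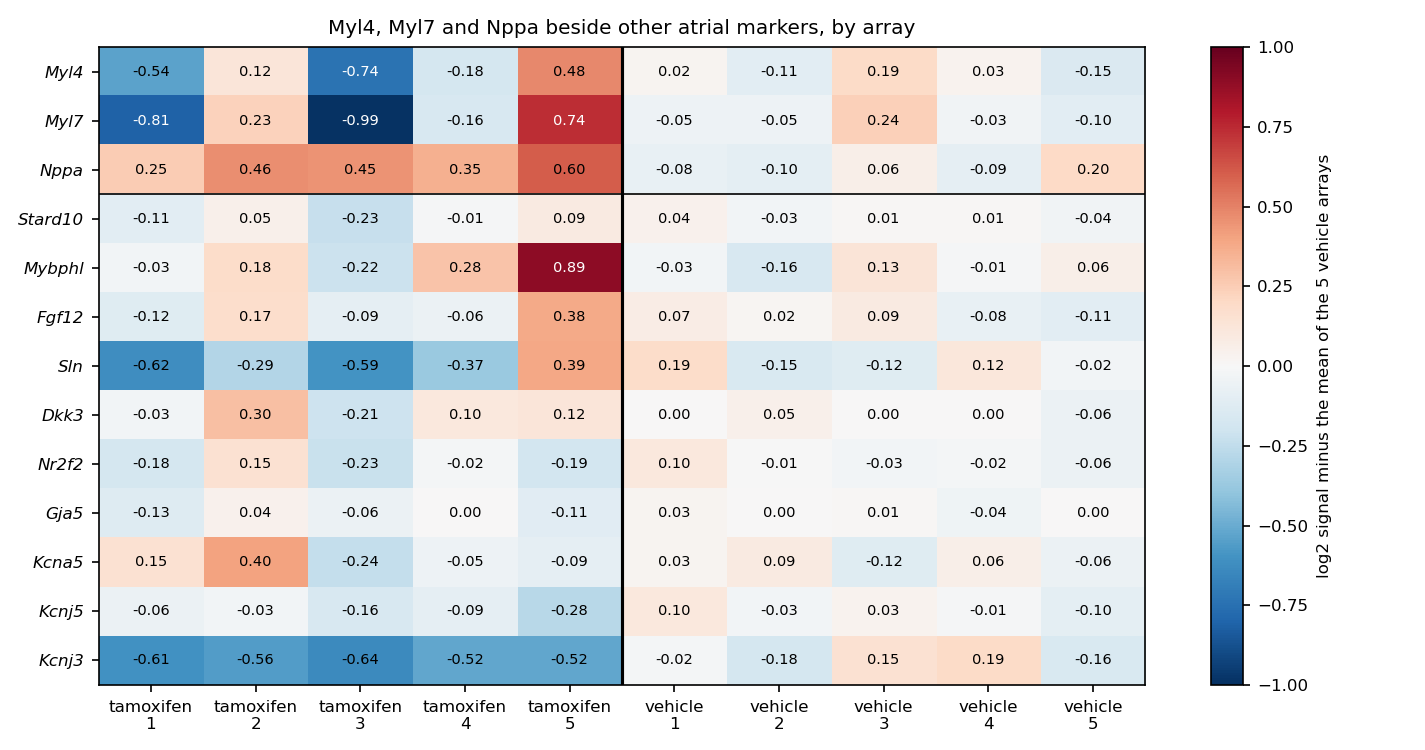
Log2 signal minus the mean of the 5 vehicle arrays for Myl4, Myl7 and Nppa (top rows) and 10 atrial markers (lower rows), with tamoxifen arrays at left and vehicle arrays at right; red is higher and blue lower. Myl4, Myl7, Sln and Mybphl differ in sign between tamoxifen hearts 3 and 5, while Nppa is above its vehicle mean in all 5 tamoxifen hearts and Kcnj3 below it in all 5.

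The shift from adult to fetal isoforms was examined within arrays, where a shift of a whole array cancels. For each pair the log2 signal of 1 gene was subtracted from the other on every array, and the groups were compared by an exact two-sided permutation test over 252 splits, whose smallest possible p is 0.00794, with Benjamini-Hochberg adjustment over the 6 pairs. Such a difference compares changes in signal and says nothing of which protein prevails. The adult partners are among the brightest signals on the arrays, and whether their probe sets could register a change there was not tested. Acta1 minus Actc1 was higher in tamoxifen hearts by 1.02 ± 0.070 (95% interval 0.86 to 1.19; exact p = 0.00794, adjusted p = 0.0238), with groups that did not overlap. Tnni1 minus Tnni3 was higher by 0.28 ± 0.085 (0.086 to 0.48; exact p = 0.00794, adjusted p = 0.0238), from -6.75 to -6.44 in tamoxifen hearts and -7.06 to -6.77 in vehicle hearts. Tnni3 itself had a log2 fold change of -0.004 (limma adjusted p = 0.962). That of Actc1 was 0.05. Both differences thus mostly restate the rises of Acta1 (1.08) and Tnni1 (0.28) and are no separate evidence of a shift.

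The other 4 pairs did not pass. Myh7 minus Myh6 differed by 0.49 ± 0.19 (0.056 to 0.93; exact p = 0.0397, adjusted p = 0.0714). Nppb minus Nppa differed by 0.45 ± 0.17 (0.043 to 0.85; exact p = 0.0476, adjusted p = 0.0714). Both would pass without vehicle replicate 5, and also without vehicle replicate 3 for the heavy chains or vehicle replicate 2 for the peptides, at adjusted p = 0.0476 each time. Myl4 minus Myl3 differed by -0.27 ± 0.23 (-0.80 to 0.26; exact p = 0.286, adjusted p = 0.343). Myl7 minus Myl2 differed by -0.19 ± 0.31 (-0.91 to 0.54; exact p = 0.595, adjusted p = 0.595).

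**Figure D3:**
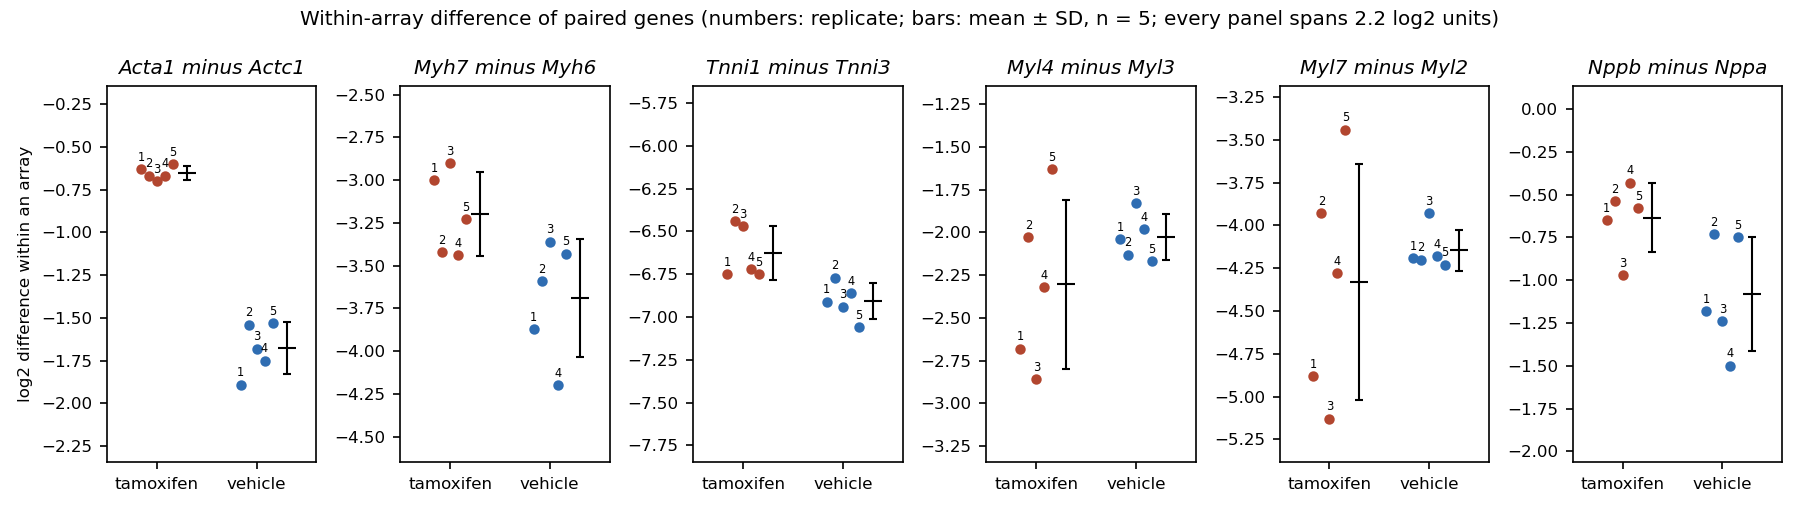
Within-array log2 difference of 5 isoform pairs and of the 2 peptide genes (vertical axis, every panel spanning the same range), tamoxifen arrays at left and vehicle arrays at right; points carry the replicate number and bars give mean and SD. The groups separate for Acta1 minus Actc1 and for Tnni1 minus Tnni3 and overlap in the other 4.

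The adult ventricular isoforms differed little between the groups. Of 8 adult genes, Actc1, Myh6, Tnni3, Myl2, Myl3, Tnnt2, Tnnc1 and Tpm1, 1 was called higher and 0 lower, with a median of 0.051. The share higher was 12.5%, beside 13.7% over all tested genes, of which 8.31% were lower. Myl2, the ventricular regulatory light chain gene, had a log2 fold change of -0.01 (limma adjusted p = 0.861). Myl3, the ventricular essential light chain gene, read 13.89 to 13.93 in tamoxifen hearts and 13.79 to 13.84 in vehicle hearts, a separation of the groups with a difference of 0.11 (adjusted p = 0.0863). It was called higher with limma's trended and robust prior (adjusted p = 0.00363), quantile normalization (adjusted p = 0.0331) and array weights (adjusted p = 0.0409). Tnnc1, cardiac troponin C, rose by 0.13 ± 0.044 (adjusted p = 0.0367), a call lost when any array but tamoxifen replicate 2 was left out.

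**Figure D4:**
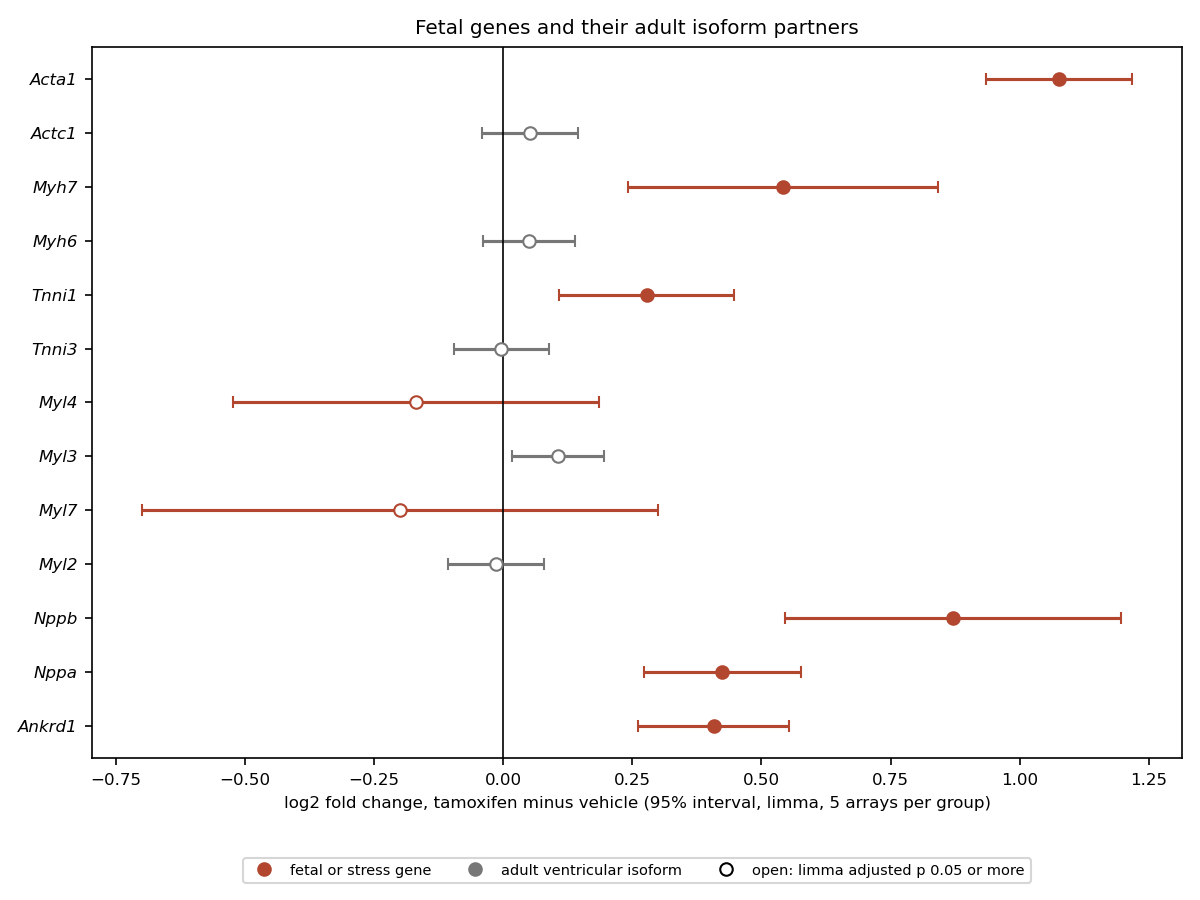
Log2 fold change, tamoxifen minus vehicle, with its 95% interval from limma for fetal or stress genes (red) and their adult isoforms (grey); open symbols did not pass the test. Acta1 (1.08), Nppb (0.87) and Myh7 (0.54) lie farthest to the right, the 5 adult isoforms lie between -0.014 and 0.11, and the intervals of Myl4 and Myl7 are wide.

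Among 20 tested further isoforms of the actin, myosin, troponin and tropomyosin families, 9 were called higher and 0 lower, with a median of 0.13. The share higher was 45%, beside 13.7% over all tested genes, of which 8.31% were lower. With the list chosen when earlier results were known, this is no test. Myl9, a regulatory light chain gene of smooth muscle and non-muscle cells, read 12.01, 12.19, 12.11, 11.80 and 12.23 in tamoxifen hearts and 11.02, 11.05, 11.14, 11.01 and 10.98 in vehicle hearts. It thus rose by 1.03 ± 0.071 (limma adjusted p = 3.11e-08), close to Acta1 in size. Myl1, the fast skeletal essential light chain gene, which embryonic heart also expresses, rose by 0.59 ± 0.093 (adjusted p = 0.000233). Tpm2, beta-tropomyosin, rose by 0.38 (adjusted p = 0.00188) and Myl6, the non-muscle essential light chain gene, by 0.26 (adjusted p = 0.00218). Myh1, Myh3, Myh4 and Mylpf lay below the filter, and Actg1 was not analysed here.

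Of 35 regulators known to act on fetal or sarcomeric genes, 6 were called higher and 1 lower, with a median of 0.046. That is 17.1% and 2.86%, near and below the 13.7% and 8.31% over all tested genes. Srf, the serum response factor gene, read 10.83, 10.97, 10.81, 10.72 and 11.02 in tamoxifen hearts and 10.30, 10.47, 10.38, 10.30 and 10.41 in vehicle hearts, a rise of 0.50 ± 0.061 (limma adjusted p = 1.95e-05). Tead1, whose protein binds MCAT elements, rose by 0.25 ± 0.050 (adjusted p = 0.00208), and Yap1, its coactivator, by 0.32 ± 0.063 (adjusted p = 0.00143). Thrb was the gene that fell. Gata4, a cardiac GATA factor gene, had a log2 fold change of 0.03 (adjusted p = 0.728). Levels of messenger RNA do not report the activity of these factors.

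Of 26 other genes of the fetal or stress response, 10 were called higher and 2 lower, with a median of 0.14. That is 38.5% and 7.69%, beside 13.7% and 8.31% over all tested genes. Earlier results were known when this list was chosen too, so the shares are no test. The count called higher was 6 without tamoxifen replicate 2 or without vehicle replicate 3, and 5 without the filter. Fhl1, a four-and-a-half LIM domain protein gene induced in hypertrophy, rose by 0.62 ± 0.055 (limma adjusted p = 4.84e-07). Mt2, a metallothionein gene, rose by 0.64 ± 0.10 (adjusted p = 0.000263), Xirp2, a gene of the intercalated disc, by 0.27 ± 0.049 (adjusted p = 0.00096), and Tnfrsf12a, the TWEAK receptor gene, by 0.54 ± 0.10 (adjusted p = 0.0014). Against that direction, Hcn4, a pacemaker channel gene expressed in fetal ventricle, fell by 0.23 (± 0.060, adjusted p = 0.0104), and Pfkp, a phosphofructokinase gene, fell by 0.25 (± 0.063, adjusted p = 0.00886).

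Of 14 adult genes of ion channels, calcium handling and metabolism, which usually decline when fetal genes return, 6 were called lower and 1 higher, with a median of -0.041. That is 42.9% lower and 7.14% higher, beside 8.31% lower and 13.7% higher over all tested genes. Because this list was also chosen with earlier results known, the shares describe it and are no test of the programme. The count called lower ranged from 2 to 6 when single arrays were left out, and was 2 without tamoxifen replicate 5 or vehicle replicate 1, and 3 without tamoxifen replicate 1 or 4 or vehicle replicate 2, 3 or 5, or without the filter. The calls of Kcnj2, an inward rectifier potassium channel gene, and Ppara, a nuclear receptor gene of fatty acid oxidation, were kept under all alternatives, with falls of 0.25 and 0.22 on the log2 scale (limma adjusted p = 0.00386 and 0.00884). Kcnd2, a transient outward potassium channel gene, was the one called higher, by 0.18 (adjusted p = 0.0427), and lost its call under 9 of the alternatives. Atp2a2, the calcium pump gene SERCA2, had a log2 fold change of 0.01 (adjusted p = 0.877).

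**Figure D5:**
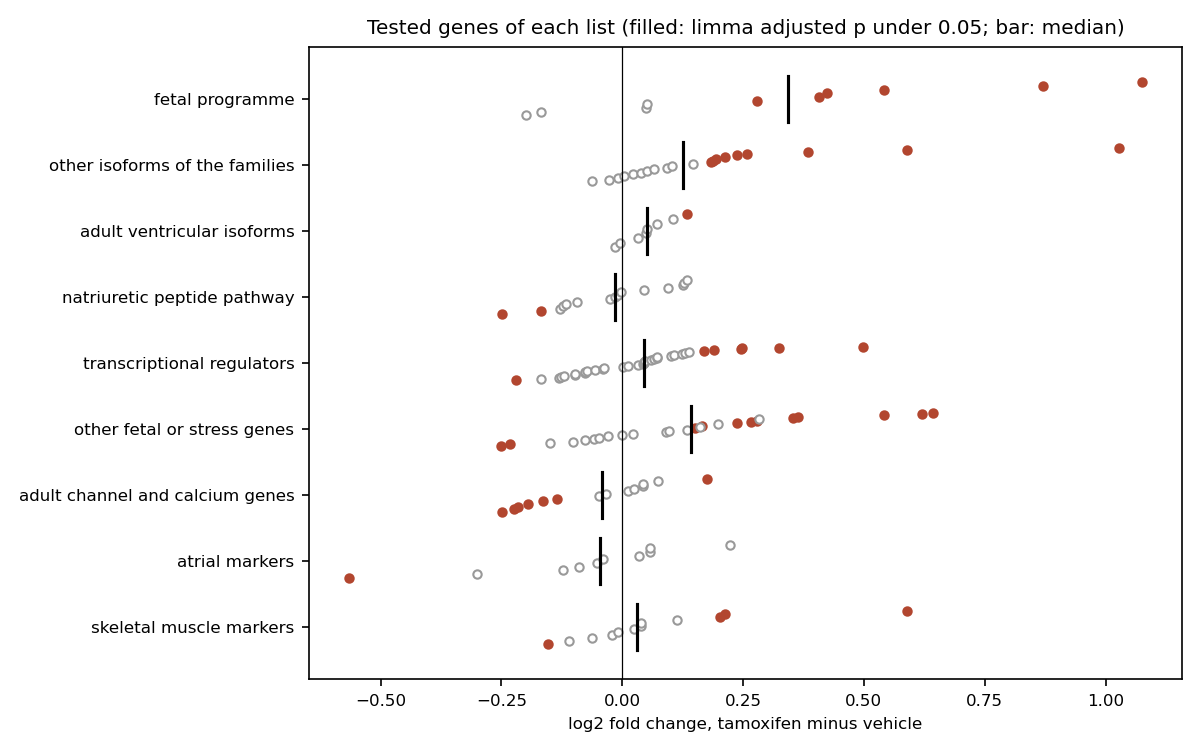
Log2 fold change, tamoxifen minus vehicle, of every tested gene in 9 lists, one row per list; filled points passed limma's adjusted p of 0.05 and the bar is the median. The 10 genes of the programme at the top have a median of 0.34 and the adult ventricular isoforms one of 0.051; Actc1 and Myh6 stand in both rows.

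Some markers of other cells moved too. The counts stand beside 13.7% called higher and 8.31% lower over all tested genes. Macrophage markers were higher in 9 of 11 and lower in 0, with Cd68 up by 0.40 ± 0.071 (limma adjusted p = 0.000697) and mean signals of 9.11 to 9.36 in tamoxifen hearts and 8.87 to 9.07 in vehicle hearts. Fibroblast markers were higher in 8 of 12 and lower in 0 (5 higher without tamoxifen replicate 1 or vehicle replicate 4), with Postn up by 0.59 ± 0.089 (adjusted p = 0.000156), Mfap5 up by 0.44 ± 0.067 (adjusted p = 0.000166) and mean signals of 9.97 to 10.19 in tamoxifen hearts and 9.74 to 9.89 in vehicle hearts. Smooth muscle markers were higher in 3 of 9 and lower in 0; these were Myl9, Cnn1 (0.34, adjusted p = 0.0023) and Acta2 (0.24, adjusted p = 0.0233), while Myh11, the smooth muscle heavy chain gene that defines the type, had 0.004. Their mean signals were 9.25 to 9.44 in tamoxifen hearts and 9.10 to 9.18 in vehicle hearts. The part of these cells in the rises of Myl9 and the actin genes was not tested.

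Skeletal muscle markers were called higher in 3 of 12 tested and lower in 1, with mean signals of 8.01 to 8.14 in tamoxifen hearts and 7.91 to 8.10 in vehicle hearts. The 3 were Myl1, Tnni2 (0.21) and Ckm (0.20), the gene called lower was Myod1 (-0.15), and the defining fast heavy chains Myh1 and Myh4, with Mylpf and Pvalb, lay below the filter. Cardiomyocyte markers were higher in 1 of 12, Actn2 (0.18 ± 0.044, adjusted p = 0.00616), and lower in 1, Ryr2 (-0.16), with mean signals of 13.26 to 13.30 in tamoxifen hearts and 13.23 to 13.27 in vehicle hearts. Genes listed as ventricular markers were higher in 1 of 8 and lower in 1. The potassium channel subunit gene Kcne1 rose by 1.19 ± 0.096 (limma adjusted p = 1.68e-07), and Hey2 fell by 0.17. How well Kcne1 marks ventricular cells of the adult mouse was not tested. Endothelial markers were higher in 1 of 8, Cldn5 (0.35 ± 0.092, adjusted p = 0.0117), and lower in 0. Conduction markers were higher in 0 of 7 and lower in 1, Hcn4. Ryr2, Hey2, Myod1 and Acta2 each lost the call when 1 of several arrays was left out. Over all tested genes 13.7% were called higher and 8.31% lower. The shares higher were 25% for skeletal muscle, 8.33% for cardiomyocyte and 12.5% for ventricular and for endothelial markers. The shares lower were 8.33% for skeletal muscle and for cardiomyocyte, 12.5% for ventricular and 14.3% for conduction markers.

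Within groups, few of the 10 genes went up and down together from heart to heart. Over the 45 pairs of them, the median r of the deviations from the group means was -0.014 over the 10 arrays, and 5 pairs had r over 0.5. Besides Myl4 with Myl7 these were Nppb with Ankrd1 (0.69), Nppa with Nppb (0.57), Nppb with Acta1 (0.54) and Acta1 with Ankrd1 (0.53). The share of all pairs of tested genes with r over 0.5 was not worked out, so this count has no background beside it. Without the 2 arrays farthest from the median of the first gene named, r was 0.61 for Nppb with Ankrd1, 0.074 for Nppa with Nppb, 0.45 for Nppb with Acta1 and 0.24 for Acta1 with Ankrd1. Of all tested genes outside the 10, the most like Myl4 were Stard10 and Adm (both r = 0.94), and the most like Myl7 were Adm (0.94) and Stard10 (0.92). The most like Nppb were Zfp740 (0.97) and Mlycd (0.96), and the most like Ankrd1 were Slu7 and Atp6v1h (both 0.96). Such values are the highest among 13870 genes over 10 arrays and are high in part for that reason.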

How the data were processed

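Ventricular RNA of 10 mice was measured on 1 Affymetrix array each; groups and replicate numbers were taken from the labels. The deposited log2 signals are the authors' RMA output; the submitters' processing notes name Affymetrix Expression Console 1.1 as the software. RMA subtracts background, normalizes arrays to each other and summarises probes; no detection call was given, and the number of arrays limits the precision. The members of the programme and all gene lists were chosen with earlier results of these data known.

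Of 35556 probe sets, 21789 had 1 symbol in the platform annotation, 1621 had several and 12146 had none; only the first were named. Where a gene had several probe sets (998 genes), the brightest on average stood for it. The dimmest 30% (log2 mean under 6.55) were left out, leaving 13870 genes. Groups were compared with limma 3.58.1 in R 4.3.3 (lmFit, eBayes, no covariate, two-sided, Benjamini-Hochberg over all tested genes, threshold 0.05); ± after a fold change is its standard error. Pairs of genes were compared by exact permutation in Python 3.11.15. Actin and myosin genes have close paralogs, and cross-hybridisation between them was not separated. Promoter and microRNA sequences are RefSeq's (GRCm38.p6); all 10 members matched the promoter table, and no protein table was used. On simulated arrays of the same 13870 genes with 200 changed, the code recovered 70.1% of log2 changes of 0.3 and 100% of changes of 1, and 5.35% of 187 calls were false.

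Named are the members, their adult partners, up to 4 genes of each list with the smallest p, genes moving against their list, markers that define a cell type, the targeted genes and, per member, the 2 genes most like it, not all of them printed. The receptor genes of the natriuretic peptides, Gata4, Atp2a2 and Mir208a were named for their role. Processing alternatives were a replicate block, limma's trended robust prior, weighted arrays, quantile or median scaling, the filter dropped or raised to 50%, averaging a gene's probe sets, keeping those of several genes, and leaving out single arrays.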

Additional observations from a re-analysis of the deposited data

Results flagged for a closer look

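Among 134 sets of 5 values checked (each named gene or pair in each group), 7 had a highest or lowest array whose gap to its nearest neighbour, divided by the whole range of the 5, was above 0.71; chance gives about 1 in 20. Vehicle array 3 stood above the other vehicle arrays for Myl7 (10.04 against 9.70 to 9.77, gap over range 0.794), for Acta2 (12.94 against 12.80 to 12.83, 0.786) and for Myl7 minus Myl2 (-3.93 against -4.23 to -4.18, 0.833). Vehicle array 1 stood above the others for Myl3 (13.84 against 13.79 to 13.80, 0.80). Tamoxifen array 2, which has the highest array median, stood above the others for the fibroblast marker Mfap5 (11.02 against 10.64 to 10.73, 0.763). Tamoxifen array 3 stood below the others for the endothelial marker Cldn5 (9.65 against 10.06 to 10.16, 0.804). Tamoxifen array 1 stood above the others for the skeletal muscle marker Myod1 (6.93 against 6.79 to 6.83, 0.714).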

How the results depend on the processing

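Nppa, Nppb, Acta1 and Ankrd1 stayed called higher under all 19 alternatives, with log2 fold changes of 0.38 to 0.47 for Nppa, 0.74 to 1.00 for Nppb, 1.01 to 1.11 for Acta1 and 0.36 to 0.46 for Ankrd1. Actc1, Myh6, Myl4 and Myl7 stayed without a call under all 19. Myh7 lost its call once limma's prior was trended and robust (0.54, adjusted p = 0.0726). With 1 array left out, Tnni1 ranged from 0.23 to 0.32; with the 50% filter it was not tested. Members called higher numbered 5 or 6, and lower 0. With 1 array left out, Myh7 minus Myh6 ranged from 0.36 to 0.57 and Nppb minus Nppa from 0.34 to 0.53. Over all genes, 1906 were called higher and 1153 lower; array weights gave 1909 higher and 1780 lower, quantile normalization 2088 and 1693, leaving out tamoxifen replicate 2, 1625 and 1645. The cause was not tested. Counts of 1 called gene in a list ranged from 0 to 3 over the alternatives. Whether samples with the same replicate number share more than the number is not stated in the labels. Their deviations correlated at 0.039 to 0.20, and 3 of 5 tamoxifen samples correlated best with their own number. The replicate block gave 2232 higher and 1300 lower, with 6 members higher. A batch or pairing behind the numbers was not tested. Depth is not known for arrays, and signals near the brightest on the array (Actc1) or low (Tnni1) limit the size of a change that can be seen.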
